A study of Homo sapiens with 18 samples.

Results

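Open chromatin near the tips of the human autosomes was followed in Ccd18-Co, an established line of human colon fibroblasts, weeks after inflammatory cytokines and after belinostat, an inhibitor of histone deacetylases. A peak was counted as subtelomeric when its centre lay within 2 Mb of a chromosome end on chromosomes 1 to 22, by hg38 chromosome lengths. The short-arm ends of the 5 acrocentric chromosomes (13, 14, 15, 21 and 22) were left out, which leaves 39 chromosome ends. By this rule 18218 of 334857 peaks (5.44%) were subtelomeric, and 306278 peaks (91.5%) lay elsewhere on the autosomes. The rule uses position only and none of the measured values.

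Accessibility was measured by bulk ATAC-seq, in which a transposase inserts sequencing adaptors into open DNA, and the values are counts of fragments per peak. The 18 libraries formed 3 groups of 6. Unstimulated cells received no cytokine. Cells of the DMSO group were pulsed 3 times with a mixture of 4 cytokines, of which IL-1β was at 0.1 ng/ml and TNF, OSM and IL-17A were at 10 ng/ml. A pulse lasted 72 h in medium without serum and was followed by 96 h without cytokines, and after 1 further week of rest the solvent DMSO was given for 5 days. Cells of the belinostat group received the same pulses and rest and then 250 nM belinostat for 5 days. Extracts were made 2 weeks after the drug. The doses are those of the sample labels, from which the study's own text departs in places. All libraries came from this 1 line, and the labels do not say whether the 6 libraries of a group came from separate cultures beyond calling them replicates, so p-values measure the spread between libraries, which may be technical. DMSO minus unstimulated is called the cytokine contrast, belinostat minus DMSO the belinostat contrast, and belinostat minus unstimulated the residual contrast. The steps recorded for unstimulated cells do not say whether these had DMSO or the same rests and changes of medium. The cytokine contrast therefore cannot tell the cytokines from solvent and handling, and changes said to follow cytokines are changes in this contrast. No unstimulated cells given belinostat were analysed here. In a bulk sample, fewer cells with an open site and less opening in each cell cannot be told apart.

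At gene starts the fibroblast label held against marker genes. Peaks at the starts of the 7 fibroblast markers (COL1A1, COL1A2, COL3A1, VIM, THY1, PDGFRB and FOXF1) averaged 2.28 to 6.16 log2 CPM, which is the log2 of counts scaled to the size of the library, with a prior count of 2. Start peaks of the epithelial, leukocyte and endothelial markers averaged -0.6 to 1.61, and KRT20 and PTPRC had no peak at their starts. Counts summed over whole genes set the markers apart less well. VWF, CDH1 and PECAM1 stood at percentiles 93.9, 70.6 and 60.6 of all genes, above COL3A1 (59.9) and THY1 (53). The other fibroblast markers stood at 81.1 to 96.6 and the other markers of the 3 further lineages at 1.73 to 36.7. Libraries held 4661678 to 11352032 counts in peaks, and the belinostat libraries (median 5505435.5) were shallower than the unstimulated libraries (median 7918719.5). Each of 15 pairs of replicates in every group differed by more than sampling noise, by at least 5.15 SD in a chi-square test of the counts, so none were merged.

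Human chromosomes end in long arrays of the repeat TTAGGG, which telomerase extends and which the shelterin complex covers. Inward of the arrays lie the subtelomeres, which are rich in genes and in G and C on many arms and hold segmental duplications shared between chromosomes. Silencing of genes placed next to telomeres is known as the telomere position effect, and histone deacetylases of the sirtuin class take part in it in several organisms. Belinostat inhibits the zinc-dependent deacetylases, which are another class.

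Sequences of 4 peaks are shown because they had the largest rise and fall of each contrast among peaks that did not overlap between groups, by the naming rule given with the methods. They are the central 200 bases on the plus strand of hg38. Capitals mark the word GGAATG of TEAD factors on either strand. The AP-1 word TGANTCA and the GC-box word GGGCGG, to which SP and KLF factors bind, were searched on both strands as well and have no match in these 4 stretches. The first lies in an exon of the gene ENSG00000260066, and its peak (chr5:1725831-1726514) opened after cytokines. The next lies in an intron of DOCK8 and closed after cytokines. The third lies in an intron of KANK1 and opened after belinostat. The fourth lies in an intron of WASHC1 and closed in both contrasts.
chr5:1726073-1726272: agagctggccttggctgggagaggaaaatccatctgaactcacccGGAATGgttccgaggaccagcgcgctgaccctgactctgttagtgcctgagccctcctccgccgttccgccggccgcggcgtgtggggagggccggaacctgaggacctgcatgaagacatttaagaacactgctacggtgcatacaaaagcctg
chr9:250089-250288: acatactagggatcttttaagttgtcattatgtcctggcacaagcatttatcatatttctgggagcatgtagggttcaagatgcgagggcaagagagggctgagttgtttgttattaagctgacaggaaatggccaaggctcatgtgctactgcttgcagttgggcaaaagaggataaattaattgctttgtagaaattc
chr9:703380-703579: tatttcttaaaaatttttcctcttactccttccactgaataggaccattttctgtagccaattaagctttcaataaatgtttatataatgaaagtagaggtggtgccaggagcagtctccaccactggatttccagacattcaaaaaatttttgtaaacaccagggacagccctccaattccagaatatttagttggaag
chr9:65606-65805: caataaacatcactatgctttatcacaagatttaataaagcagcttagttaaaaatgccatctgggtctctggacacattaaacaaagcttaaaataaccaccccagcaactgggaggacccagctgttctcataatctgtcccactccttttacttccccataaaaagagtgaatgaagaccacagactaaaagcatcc
These 4 stretches are AT-rich in the 3 peaks of 9p, at 36.5% to 41.5% GC, while the stretch on 5p has 60.5% GC. Among 241611 peaks of any position that are at least 200 bases wide, 15.5% hold TGANTCA in the central 200 bases, 16% hold GGAATG and 9.72% hold GGGCGG. A match to a word is a description of the sequence, not a bound site.

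Words of the telomere repeat were no more frequent in subtelomeric peaks than in others. TTAGGG or its complement CCCTAA stood in the central 200 bases of 5.88% of 12968 subtelomeric peaks of at least that width, of 7.35% of other autosomal peaks and of 7.27% of all peaks. Whole peaks with 3 or more such words numbered 29 of the subtelomeric peaks (0.159%) and 498 of the others (0.163%). Of the 29 peaks, 7 lay within 200 kb of an end. The 2 subtelomeric peaks with the most words are shown with the words in capitals, again as the central 200 bases of the plus strand.
chr11:191955-192154: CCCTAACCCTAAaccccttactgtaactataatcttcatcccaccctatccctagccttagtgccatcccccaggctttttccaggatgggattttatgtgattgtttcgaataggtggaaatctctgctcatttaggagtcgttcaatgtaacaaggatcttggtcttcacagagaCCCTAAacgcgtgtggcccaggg
chr22:49271810-49272009: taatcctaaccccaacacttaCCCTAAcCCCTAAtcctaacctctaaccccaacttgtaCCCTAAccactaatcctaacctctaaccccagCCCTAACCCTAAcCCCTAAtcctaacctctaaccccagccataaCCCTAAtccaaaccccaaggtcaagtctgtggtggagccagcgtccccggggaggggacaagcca
The peak on 11p (chr11:191503-192606) lies in an intron of BET1L, 192 kb from the end, and holds 18 words, of which 3 stand in the stretch shown. Its log2 CPM was 2.29, 2.47 and 2.65 (lowest, median and highest of 6) without stimulation, 2.28, 2.33 and 2.79 with DMSO, and 1.24, 2.24 and 2.5 with belinostat. The groups overlapped, and neither contrast passed the test (log2 fold change -0.02 ± 0.16 (SE), edgeR adjusted p 0.935 for cytokines, -0.33 ± 0.18, adjusted p 0.348 for belinostat). The peak on 22q (chr22:49271804-49272016) is intergenic, 1550 kb from the end, and holds 8 words. It was weak, with medians of -0.67 in unstimulated libraries, 0.21 with DMSO and -0.06 with belinostat, and its cytokine difference of 1.06 ± 0.43 (SE) missed the threshold (adjusted p 0.0654).

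Subtelomeric peaks were denser and richer in GC than other peaks. Per sequenced Mb there were 139 peaks in the last 0.1 Mb, 140 from 0.1 to 0.2 Mb, 233 to 251 in the ranges from 0.2 to 2 Mb, and 139 at 10 to 20 Mb from the end. The peak nearest to its end lay between 10.5 kb and 256 kb from it (farthest on 5q), and 895 peaks lay within 200 kb of an end. The median GC content was 58.5% against 49.7% in other autosomal peaks, and the median ratio of observed to expected CpG was 0.321 against 0.186. Peak width was alike, with medians of 275 and 277 bp. Exons held 26.1% of subtelomeric and 18.6% of other autosomal peaks, introns 46.3% and 51.2%, and intergenic sequence 27.7% and 30.2%. A protein-coding start lay within 1 kb of 11.3% of subtelomeric and 8.51% of other autosomal peaks. The GC-box word was in the central 200 bases of 18.6% of subtelomeric and 9.21% of other autosomal peaks, and the AP-1 word in 8.27% and 16%. The TEAD word was in 11.5% and 16.3%, the CTCF core AGGNGGCAG in 3.69% and 3.21%, the NF-kB word GGANTTTCC in 0.848% and 0.989%, and the E-box CANCTG in 53.1% and 48.3%. In all peaks the last 3 of these words had shares of 3.24%, 0.974% and 48.6%. Words of different factors can overlap in a peak, and each was counted on its own.

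More subtelomeric peaks opened than closed after the cytokine pulses. At an adjusted p under 0.05 by edgeR, 3009 of 18218 subtelomeric peaks opened (16.5%), against 9.51% of all peaks, and 1278 closed (7.02%), against 9.73% of all peaks. Other autosomal peaks weighted to the same mean count and the same distance from a protein-coding start opened in 9.36% and closed in 9.1%. When GC content was added to the weighting, the same shares were 12.9% and 7.91%. The median log2 fold change of subtelomeric peaks was 0.40 (quartiles -0.08 and 0.83) against 0.13 in the weighted others. The difference of 0.27 fell to 0.10 once GC content was weighted too. These shares and medians describe the peaks and carry no test over them, because peaks of 1 library are not replicates. The opened peaks were changed by a median of 1.17 on the log2 scale and the closed peaks by 0.42. Opened peaks were weak and closed peaks strong, with median log2 CPM of 0.41 and 4.13 among those at least 200 bases wide. The sizes of change were thus not compared at equal strength. Peaks that opened without overlap between groups numbered 531 (2.91% of subtelomeric peaks, against 1.91% of all peaks), and 510 closed without overlap (2.8%, against 3.62%).

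The balance of opened and closed peaks depended on how libraries were scaled. With total counts in place of TMM factors, 26.2% of subtelomeric peaks opened and 2.07% closed, against 16.2% and 3.25% of all peaks. With TMM factors from the weaker 50% of peaks, 3.22% opened and 17% closed, against 2.24% and 25.2% of all peaks. In each case subtelomeric peaks opened more often and closed less often than all peaks. With loess offsets and GC offsets, which remove the trend of each library with peak strength and with GC content, 4.53% opened and 0.532% closed, against 2.83% and 1.08% of other autosomal peaks. Weak peaks took more of the counts after cytokines. The weaker 50% of all peaks (average log2 CPM up to 0.20) held 4.49%, 7.03% and 7.73% of all counts in unstimulated libraries (lowest, median and highest of 6), 8.35%, 10.9% and 12% in DMSO libraries and 8.26%, 12.3% and 15.5% in belinostat libraries. Of subtelomeric peaks 46.8% belonged to these, against 49.9% of other autosomal peaks. A larger share of reads from background would also raise weak peaks, and the part of background in the calls was not tested. Leaving out unstimulated replicate 6, in which 12.3% of subtelomeric peaks had no count, gave 9.44% opened against 5.52% of all peaks and 4.25% closed against 6.18%. Without unstimulated replicate 1 the shares were 10.7% and 4.63%, against 6.32% and 6.71% of all peaks. Without DMSO replicate 4 10.3% opened, against 5.99% of all peaks.

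The share of all counts that fell in subtelomeric peaks was 4.96%, 5.17% and 5.29% in unstimulated libraries (lowest, median and highest), 5.23%, 5.48% and 5.59% in DMSO libraries and 5.14%, 5.45% and 5.75% in belinostat libraries. The means were 5.15% ± 0.118, 5.46% ± 0.136 and 5.46% ± 0.238 (SD, n = 6 each). Unstimulated and DMSO libraries overlapped only at 5.23% to 5.29%, and the belinostat libraries overlapped both other groups.

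The opened share was highest between 1 and 1.5 Mb from the end and lower on both sides. Cytokines opened 12.4% of the 362 peaks in the last 0.1 Mb and closed as many. From 1 to 1.5 Mb 18.2% opened and 6.17% closed. The excess did not stop at 2 Mb: 16.5% of peaks opened at 2 to 3 Mb, 12.8% at 3 to 5 Mb, 11.6% at 5 to 10 Mb, 9.39% at 10 to 20 Mb and 7.75% beyond 20 Mb. Median GC content moved the same way, from 53.3% in the last 0.1 Mb to 59.8% at 1 to 1.5 Mb, 57% at 2 to 3 Mb and 48.4% beyond 20 Mb. With loess and GC offsets the opened share lay between 3.59% and 4.88% in all 6 ranges within 2 Mb and at 2.62% beyond 20 Mb.

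**Figure D1:**
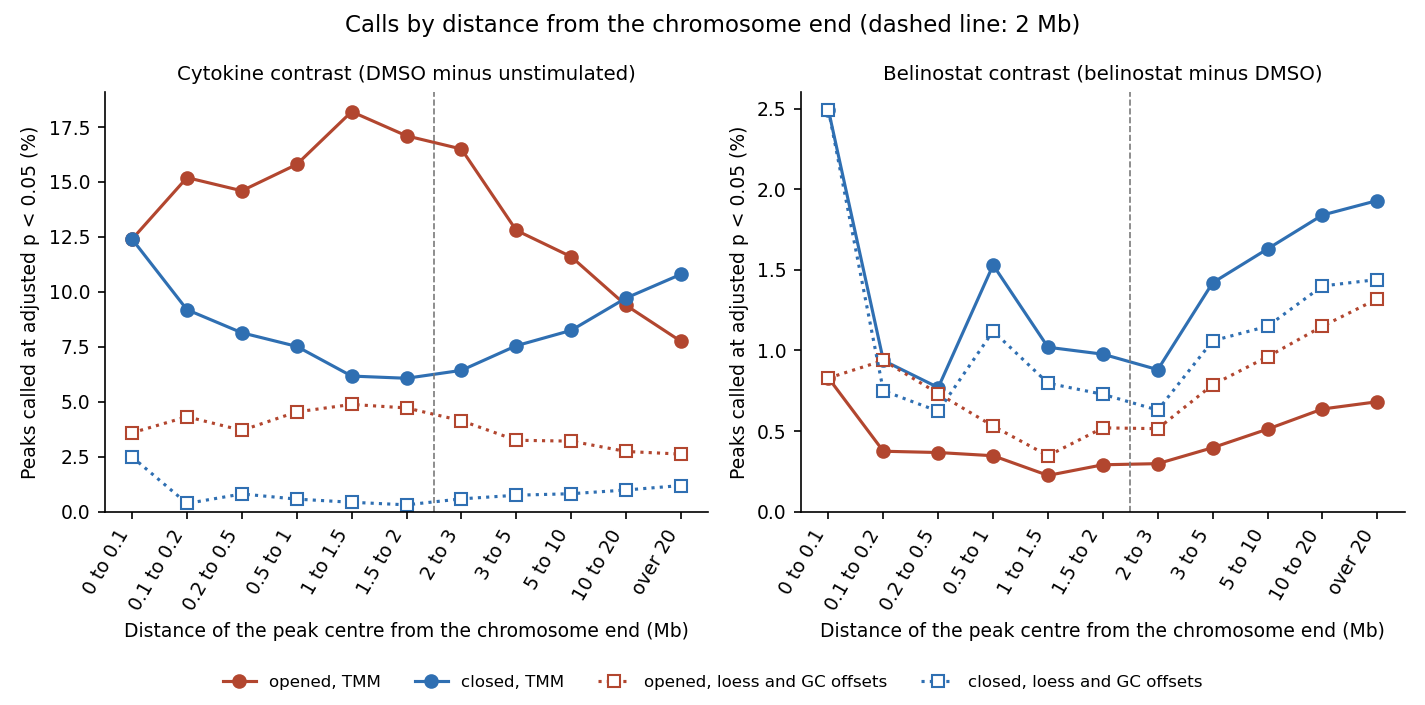
Share of peaks called opened or closed (y axis, %) by the distance of the peak centre from the chromosome end (x axis, Mb), for the cytokine contrast on the left and the belinostat contrast on the right, with TMM factors (filled circles) and with loess and GC offsets (open squares). The opened share in the cytokine contrast was highest at 1 to 1.5 Mb, at 18.2%, and lowest beyond 20 Mb, at 7.75%.

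At each level of GC content a larger share of subtelomeric than of other autosomal peaks opened. Below 45% GC the shares were 6.53% and 3.55%, at 55% to 60% GC 20.8% and 14.5%, and at 60% to 65% GC 21.5% and 13.3%. Above 65% GC 12.3% of subtelomeric and 4.95% of other autosomal peaks opened, and 17.8% and 34.6% closed. In this top range 35.6% of subtelomeric peaks and 58.1% of the others lay within 1 kb of a start, and their median log2 CPM was 0.78 and 2.22. The opened shares in this range under loess and GC offsets were 4.41% and 1.59%.

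**Figure D2:**
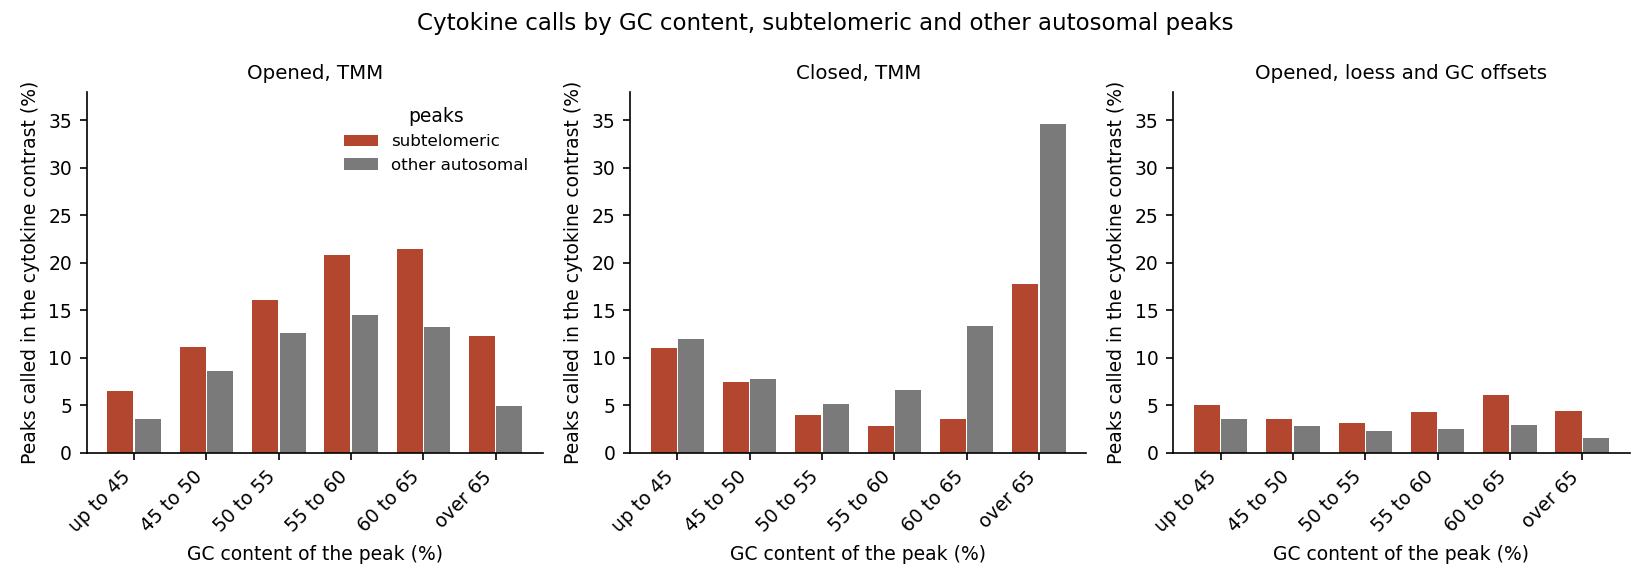
Share of peaks called in the cytokine contrast (y axis, %) in 6 ranges of the GC content of the peak (x axis, %), for subtelomeric peaks (red bars) and other autosomal peaks (grey bars), opened and closed with TMM factors and opened with loess and GC offsets. The red bar of opened peaks is higher than the grey bar in all 6 ranges, and above 65% GC 17.8% of subtelomeric against 34.6% of other autosomal peaks closed.

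Peaks far from gene starts opened most often. Among subtelomeric peaks over 100 kb from a protein-coding start 22.8% opened and 2.56% closed, while among those within 1 kb of one 6.79% opened and 31.7% closed. Other autosomal peaks had the same order, with 11.3% and 7.05% far from starts and 3.88% and 37.8% near them. Subtelomeric peaks near starts were stronger, with a median log2 CPM of 2.14 against -0.03 far from them. With loess and GC offsets 5.6% of the far and 2.28% of the near subtelomeric peaks opened, and 0.366% and 0.776% closed. In 5 bins of peak strength, each with 20% of all peaks, the opened share of subtelomeric peaks was 14.1%, 15.5%, 20.8%, 23.9% and 3.63% from the weakest to the strongest bin, against 12.1%, 11.3%, 12.8%, 8.13% and 1.08% of other autosomal peaks. In the strongest bin 37.9% of subtelomeric and 42.8% of other autosomal peaks closed, or 2.08% and 3.24% with loess and GC offsets. The bin next to the strongest, with average log2 CPM of 0.48 to 1.64, showed the widest gap between the opened shares of subtelomeric and other peaks. In that bin the median GC content was 59.8% and 47.2%.

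The 8 genes nearest to most opened peaks were chosen after their values were seen. By nearest protein-coding start they held 17.8% of the opened subtelomeric peaks and 10.4% of all subtelomeric peaks. PTPRN2, which encodes a phosphatase-like protein of secretory granules, was nearest to 116 opened peaks of 412 on 7q, and 2 closed. TMEM121 was nearest to 94 opened of 265 on 14q, where the immunoglobulin heavy-chain locus lies between it and the end. DLGAP2, a scaffold protein of neuronal synapses on 8p, had 82 of 290, and no peak closed there. BRD1 on 22q had 61 of 202, the RNA-editing enzyme gene ADARB2 on 10p 58 of 207, the transcription factor gene SALL3 on 18q 58 of 191, B3GAT1 on 11q 34 of 212 (16%, not above the 16.5% of all subtelomeric peaks) and TAFA5 on 22q 33 of 122. Under loess and GC offsets 4.53% of all subtelomeric peaks opened. By gene, 28 of 412 opened at PTPRN2, 37 of 265 at TMEM121 and 16 of 207 at ADARB2. At TAFA5 11 of 122 opened, at SALL3 11 of 191 and at BRD1 11 of 202. At DLGAP2, with 11 of 290, and B3GAT1, with 6 of 212, the share was below that of all subtelomeric peaks. Closed peaks were spread more thinly and included 15 of 78 near KANK1, 13 of 75 near FOXQ1, 13 of 30 near PLEC, the gene of the cytoskeletal linker plectin, and 8 of 40 near COL6A1, a collagen VI chain. Over all subtelomeric peaks 7.02% closed, against 9.73% of all peaks. The peaks near PLEC were strong, with a median log2 CPM of 3.34. With loess and GC offsets 3, 1, 2 and 2 peaks closed near these 4 genes, when 0.532% of all subtelomeric peaks did.

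Among peaks of average log2 CPM of at least 1 with no overlap between groups, the 5 largest rises after cytokines were all in GC-rich sequence (60.7% to 64.9%) at or below 1.16 average log2 CPM. The peak on 5p had log2 CPM of -0.19, -0.1 and 0.24 in unstimulated libraries (lowest, median and highest), 0.82, 1.3 and 1.47 in DMSO libraries and 1.06, 1.63 and 2.07 in belinostat libraries. It rose by 1.54 ± 0.29 (SE, adjusted p 6.37e-05), and every DMSO and belinostat library was above every unstimulated one. The peak chr9:138014627-138015262, in an intron of CACNA1B, a neuronal calcium channel gene, had medians of 0.17, 1.41 and 1.36 in the 3 groups and rose by 1.40 ± 0.27 (adjusted p 0.000134). The peak chr9:136430153-136430812, in an exon of INPP5E, an inositol phosphatase of the primary cilium, rose by 1.31 ± 0.26 (adjusted p 0.000208). Intergenic peaks on 22q (chr22:49704373-49705281, nearest to BRD1) and 2p (chr2:587488-588530, nearest to TMEM18) rose by 1.29 ± 0.27 and 1.28 ± 0.27. None of these 5 passed the test in the belinostat contrast, where their log2 fold changes ran from -0.34 to 0.42.

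The 5 largest falls lay on 9p, 6q and 8p. The DOCK8 peak, in the gene of an exchange factor of the immune system, had log2 CPM of 1.46, 1.79 and 2.09 in unstimulated libraries, -0.27, 0.41 and 1.02 with DMSO and -0.25, 0.85 and 1.2 with belinostat. It fell by 1.58 ± 0.24 on the log2 scale (adjusted p 5.92e-07), and all libraries given cytokines were below all unstimulated ones. The naming rule required this of the DMSO libraries, not of the belinostat libraries. An intergenic peak on 6q (chr6:170441385-170441686, nearest to the proteasome gene PSMB1) had medians of 2.44, 1.21 and 0.57 and fell by 1.36 ± 0.19 (adjusted p 4.65e-08). A peak in an intron of KANK1, a regulator of the actin cytoskeleton (chr9:627682-627994), fell by 1.30 ± 0.21 (adjusted p 3.71e-06). A peak in an exon of ENSG00000288985 on 8p (chr8:274330-274723) fell by 1.23 ± 0.19 (adjusted p 1.7e-06). The WASHC1 peak, in a gene of the WASH actin regulators that has near-identical copies on other chromosome ends, had log2 CPM of 3.06, 3.33 and 3.56 in unstimulated libraries, 1.99, 2.14 and 2.4 with DMSO and 0.48, 0.97 and 1.52 with belinostat. The 3 groups did not overlap, with a fall of 1.20 ± 0.15 after cytokines (adjusted p 8.83e-10) and a further fall of 1.27 ± 0.21 after belinostat (adjusted p 9.11e-06). Reads of near-identical copies could have been assigned to any of them, so the position of this change is uncertain. The calls of these 10 peaks held under all alternative settings that were refitted and with each of the 18 libraries left out. Settings that only moved the distance limit reuse the same fit and could not change a call.

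**Figure D3:**
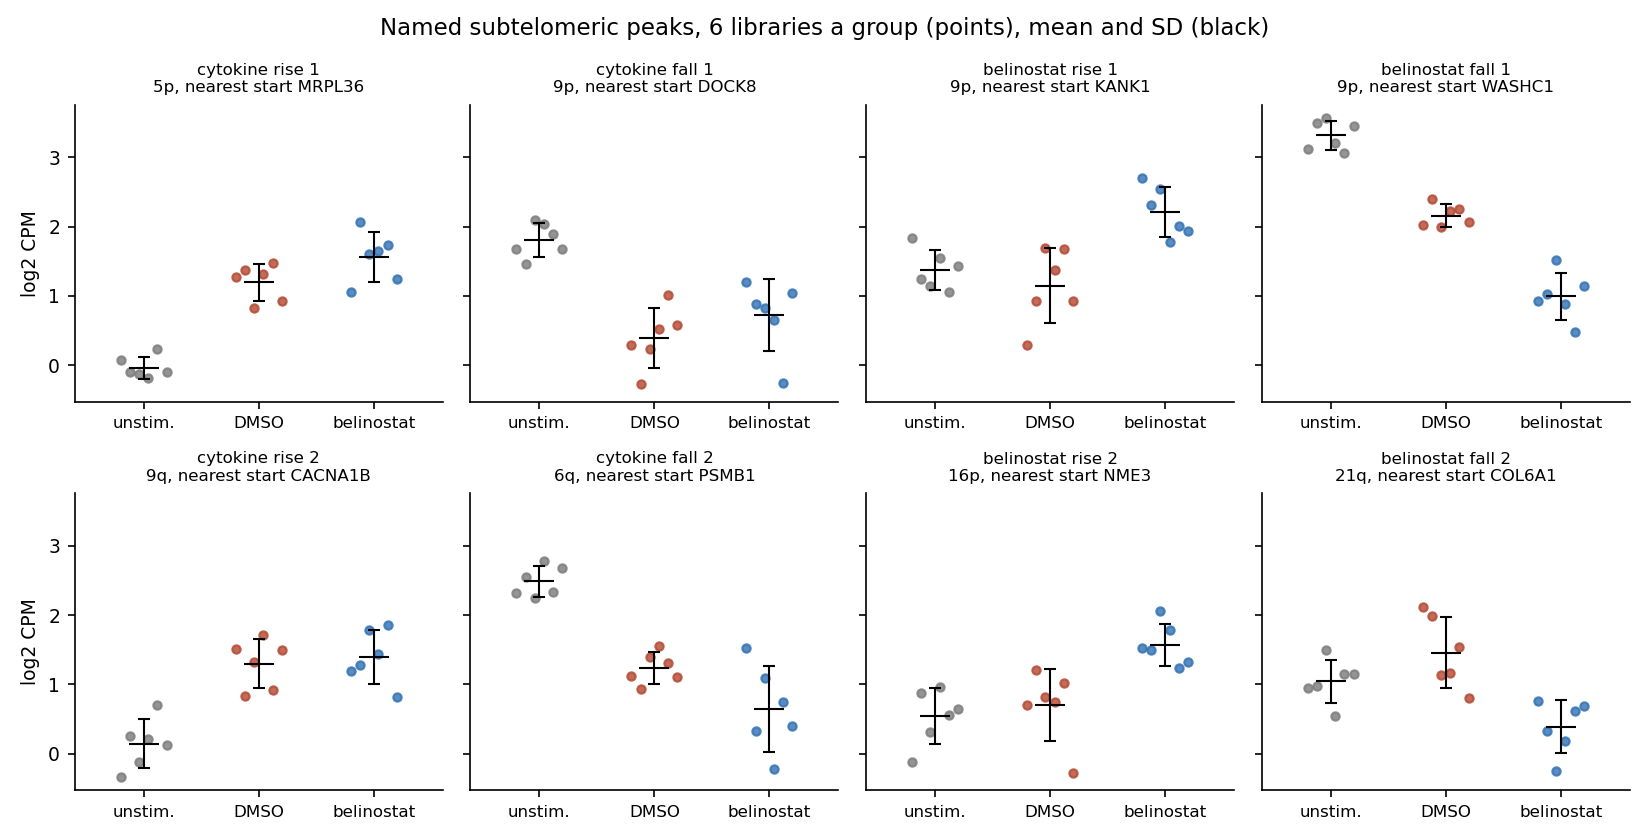
Log2 CPM (y axis) of 8 subtelomeric peaks in the 18 libraries (points, 6 per group) with the mean and SD (black), for the 2 largest rises and falls of each contrast. The WASHC1 peak steps down from a median of 3.33 in unstimulated to 2.14 in DMSO and 0.97 in belinostat libraries.

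Summed over the terminal 2 Mb, chromosome ends differed in the cytokine contrast. Counts in 3 of 39 ends were higher, against 8.55% of all 1450 windows of 2 Mb, and in 27 lower, against 80.1% of all windows. The median log2 fold change was -0.15 for the ends and -0.22 for the 1411 other windows, so that most windows of both kinds were lower on this scale. The end of 7q, with PTPRN2 and VIPR2, had levels of 9.15, 9.4 and 9.48 log2 CPM in unstimulated (lowest, median and highest), 9.39, 9.61 and 9.69 in DMSO and 9.36, 9.68 and 9.79 in belinostat libraries. It was higher by 0.24 ± 0.07 (SE, adjusted p 0.00329), with overlap only through 1 DMSO library. The end of 14q was higher by 0.12 ± 0.05 (adjusted p 0.0212) and that of 10q by 0.09 ± 0.04 (adjusted p 0.0429). Their peaks opened in 24% (7q), 30.1% (14q) and 22.7% (10q). At the other extreme the ends of 3p, 19q and 9p were lower by -0.29 ± 0.07, -0.28 ± 0.06 and -0.27 ± 0.05 (adjusted p 6e-04, 6e-04 and 0.00041), and 3q stood at -0.27 as well. The end of 3p had 75 peaks at a median GC content of 41.8%, and 28.2% of the peaks of 19q lay within 1 kb of a start.

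The direction for whole ends depended on the scaling. The median of the ends minus the median of all windows was 0.07 with TMM factors, 0.08 with loess offsets and 0.03 with loess and GC offsets. It was 0.07 as well with total counts and with TMM factors of the weaker peaks, which by construction move all windows of a library alike. The ends called higher numbered 25 with total counts, when 30.8% of all windows were, 0 with TMM factors of the weaker peaks (3.03% of windows) and 29 with loess and GC offsets (32.8% of windows). The ends of 7q, 14q and 10q had negative values, of -0.20, -0.32 and -0.35, with TMM factors of the weaker peaks, when the median window stood at -0.67. Without DMSO replicate 4, or without DMSO replicate 6, 1 end was called higher.

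**Figure D4:**
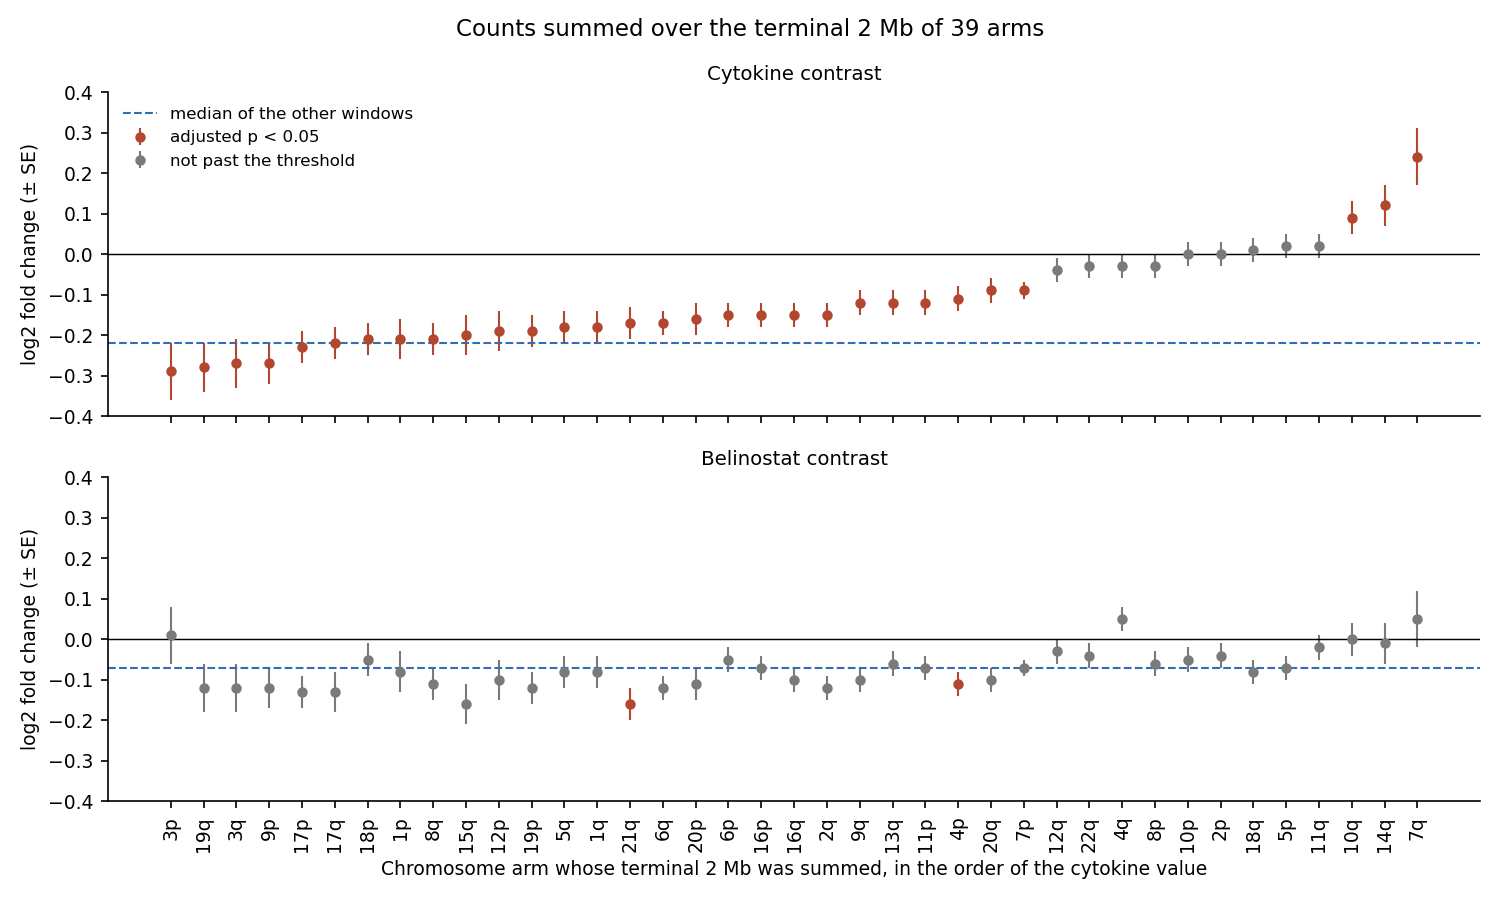
Log2 fold change (y axis, ± SE) of the counts summed over the terminal 2 Mb of 39 chromosome arms (x axis, in the order of the cytokine value), for the cytokine contrast above and the belinostat contrast below, with the median of the other windows as a dashed line and red points at adjusted p under 0.05. The end of 7q is highest after cytokines, at 0.24, and only 21q and 4p are red in the belinostat contrast.

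Counts were also summed per protein-coding gene, over its body and the 3 kb before its start. Of 1187 genes whose start was subtelomeric, 153 (12.9%) were higher after cytokines, against 10.6% of all 18893 genes, and 653 (55%) were lower, against 61.6%. The median log2 fold change was -0.22 for subtelomeric and -0.26 for all genes. The median of all genes moved with the scaling, to -0.05 with total counts, -0.71 with TMM factors of the weaker peaks and -0.01 with loess and GC offsets, so the lists that follow are read against it. The shares of all genes called moved too. With loess and GC offsets 9% of all genes were higher and 5.23% lower, and with TMM factors of the weaker peaks 1.85% and 81.2%. Genes that overlap share peaks, and a summed gene does not tell its start from its body.

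Genes used by other cell lineages were the list that stood highest after cytokines. Of 24 measured genes 11 were higher (45.8%, against 10.6% of all genes) and 1 lower (4.17%, against 61.6%). The median was 0.24, or 0.50 above that of all genes, and 22 lay above the median of all genes. With loess and GC offsets 10 were higher and 0 lower, whereas with TMM factors of the weaker peaks 3 were higher and 10 lower, the list then standing at -0.18 when all genes stood at -0.71. The mucin genes of 11p, which encode the gel-forming proteins of mucus and are not genes of fibroblasts, rose together: MUC5AC by 0.68 ± 0.15 (SE, adjusted p 0.000555), MUC5B by 0.62 ± 0.15 (0.00103), MUC6 by 0.61 ± 0.19 (0.00481) and MUC2 by 0.58 ± 0.14 (0.000821). MUC2 had levels of 3.7, 4.53 and 4.7 log2 CPM in unstimulated libraries, 4.5, 5.03 and 5.12 with DMSO and 4.49, 5.03 and 5.32 with belinostat. Of the DMSO libraries only replicate 3 overlapped the unstimulated ones, and the belinostat libraries overlapped them too. Mesothelin (MSLN) rose by 0.83 ± 0.18 (adjusted p 0.000634), the dopamine transporter gene SLC6A3 by 0.56 ± 0.14 (0.00131) and the olfactory receptor gene OR4F5 by 0.85 ± 0.23 (0.00226). The mast cell tryptase genes TPSAB1 and TPSB2 rose by 0.85 ± 0.21 and 0.63 ± 0.22, and as near-identical neighbours they cannot be separated with certainty. OR4F5 has close copies too. ELANE, neutrophil elastase, was the member that fell, by 0.42 ± 0.08 (adjusted p 0.000324), through a single peak. The alpha-globin genes HBA1 and HBA2, which are copies of each other, had -0.15 and -0.31 and did not pass the test.

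Housekeeping genes stood lowest. Of 20 genes 0 were higher, against 10.6% of all genes, and 18 lower (90%, against 61.6%). The median was -0.36, and 4 lay above the median of all genes. PSMB1, a proteasome subunit, fell by 0.48 ± 0.08 (adjusted p 0.000157), POLR2L, a subunit of RNA polymerase II, by 0.49 ± 0.11 (0.000627) and the lipid peroxidase GPX4 by 0.43 ± 0.09 (0.000381). With loess and GC offsets 3 of the 20 were lower, and PSMB1 was called lower under all 5 alternative settings. PSMB1 had levels of 6.08, 6.14 and 6.27 in unstimulated and 5.48, 5.66 and 5.91 in DMSO libraries, without overlap.

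Matrix genes went both ways, at shares near those of all genes. Of 20 genes 3 were higher (15%, against 10.6% of all genes) and 12 lower (60%, against 61.6%), with a median of -0.17. ADAMTS17, a secreted metalloproteinase, rose by 0.62 ± 0.12 (adjusted p 0.000305) over 86 peaks, ADAM8 by 0.45 ± 0.16 (0.0137) and COL20A1 by 0.41 ± 0.12 (0.00325), the last at -0.03 with TMM factors of the weaker peaks. MXRA8 fell by 0.40 ± 0.09 (adjusted p 0.000498), MMP17, a membrane-anchored metalloproteinase, by 0.39 ± 0.07 (0.000288), and SERPINF1, which encodes the anti-angiogenic protein PEDF, by 0.40 ± 0.08 (0.000425). The collagen VI genes COL6A1 and COL6A2 on 21q fell by 0.18 ± 0.08 and 0.17 ± 0.07 (adjusted p 0.045 and 0.0351). That is less than the median of all genes fell. The list had 5 genes higher and 1 lower under loess and GC offsets, when 9% of all genes were higher and 5.23% lower.

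Growth factor and developmental signalling genes had 4 of 20 higher (20%, against 10.6% of all genes) and 10 lower (50%, against 61.6%, median -0.15). FLT4, the receptor of lymphatic endothelium, rose by 0.60 ± 0.14 (adjusted p 0.000674), the R-spondin gene RSPO4 by 0.42 ± 0.14 (0.00921), the Notch ligand gene JAG2 by 0.30 ± 0.12 (0.0234) and the WNT inhibitor gene NKD2 by 0.25 ± 0.08 (0.00636). The last 3 were below 0 with TMM factors of the weaker peaks. The kinase gene YES1 fell by 0.40 ± 0.09 (adjusted p 0.000477), PLXNB2 by 0.34 ± 0.07 (0.000536) and PDGFA, a mitogen of fibroblasts, by 0.33 ± 0.08 (0.00129). Under loess and GC offsets 6 genes of this list were higher and 0 lower, when 9% of all genes were higher and 5.23% lower. Among transcription factors of development 2 of 18 were higher (11.1%) and 7 lower (38.9%, median -0.10). SALL3 rose by 0.88 ± 0.21 (adjusted p 0.000815) and the homeobox gene UNCX by 0.52 ± 0.20 (0.0222), while SOX12 fell by 0.42 ± 0.09 (0.000566) and KLF16 by 0.38 ± 0.08 (0.000562). Loess and GC offsets gave 2 of the list higher and 0 lower, SALL3 among them, while UNCX at 0.28 was no longer called (adjusted p 0.345).

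Cytokine, interferon and innate signalling genes had 1 of 28 higher (3.57%, against 10.6% of all genes) and 11 lower (39.3%, against 61.6%). Their median was -0.12, which was 0.14 above the median of all genes. The gene that rose was IL17C, a cytokine of epithelial cells, through 1 peak, by 0.72 ± 0.24 (adjusted p 0.00925). MAFK, a small partner of AP-1-like factors, fell by 0.38 ± 0.08 (0.000486) and the antiviral gene IFITM1 by 0.37 ± 0.08 (0.0007). IRF7 fell by 0.26 ± 0.10 (0.0214), while the interleukin-1 receptor regulator SIGIRR at 0.18 ± 0.11 (0.13) and TOLLIP at -0.07 ± 0.07 (0.415) missed the threshold. Loess and GC offsets gave 7 higher and 0 lower. Among chromatin and telomere regulators 2 of 21 were higher (9.52%) and 13 lower (61.9%, median -0.21), near the shares of all genes. TERT, the catalytic subunit of telomerase, on 5p, had levels of 3.29, 4.31 and 4.74 in unstimulated libraries, 4.41, 4.96 and 5.21 with DMSO and 4.44, 5.13 and 5.44 with belinostat. It rose by 0.67 ± 0.16 (adjusted p 0.000878) over 24 peaks, with overlap between groups. The histone methyltransferase gene EHMT1 rose by 0.20 ± 0.08 (0.0185), but had -0.23 with TMM factors of the weaker peaks. CHAMP1 fell by 0.53 ± 0.09 (0.000179), the demethylase gene KDM5A by 0.47 ± 0.11 (0.000896) and the remodelling ATPase gene SMARCA2 by 0.40 ± 0.08 (0.000382). Under loess and GC offsets 5 of this list were higher and 2 lower.

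Genes next to the tips had 3 of 23 higher (13%, against 10.6% of all genes) and 11 lower (47.8%, against 61.6%, median -0.17). The 3 were members of duplicated families: FRG2B on 10q rose by 1.30 ± 0.27 (adjusted p 0.000425), FRG2 on 4q by 1.02 ± 0.34 (0.00996) and DUX4 on 4q, a factor of the early embryo that is silent in most adult cells, by 0.68 ± 0.16 (0.000861). DUX4 had levels of 3.55, 4.3 and 4.56 in unstimulated libraries, 4.31, 4.96 and 5.2 with DMSO and 4.05, 4.94 and 5.29 with belinostat. The groups overlapped. FRG2 and FRG2B are near-identical, DUX4 lies in a repeat array with a copy on 10q, and reads cannot be assigned to 1 copy with certainty, so the values belong to the families. WASHC1 fell by 0.42 ± 0.08 (0.000312). With loess and GC offsets 4 of the list were higher and 1 lower. FRG2B at 1.03 (adjusted p 0.00484) and DUX4 at 0.98 (1.54e-05) were still called, whereas FRG2 at 0.78 (0.104) and WASHC1 at -0.13 (0.0963) were not. Of 42 called genes picked from the lists and followed through the settings, 24 kept their cytokine call under these offsets. Among these 42 genes, those that fell and were still called lower were KDM5A, MXRA8, PSMB1 and POLR2L. Those that rose and lost the call were TPSB2, FRG2, RSPO4 and UNCX. The lists held further called genes that are not counted here.

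**Figure D5:**
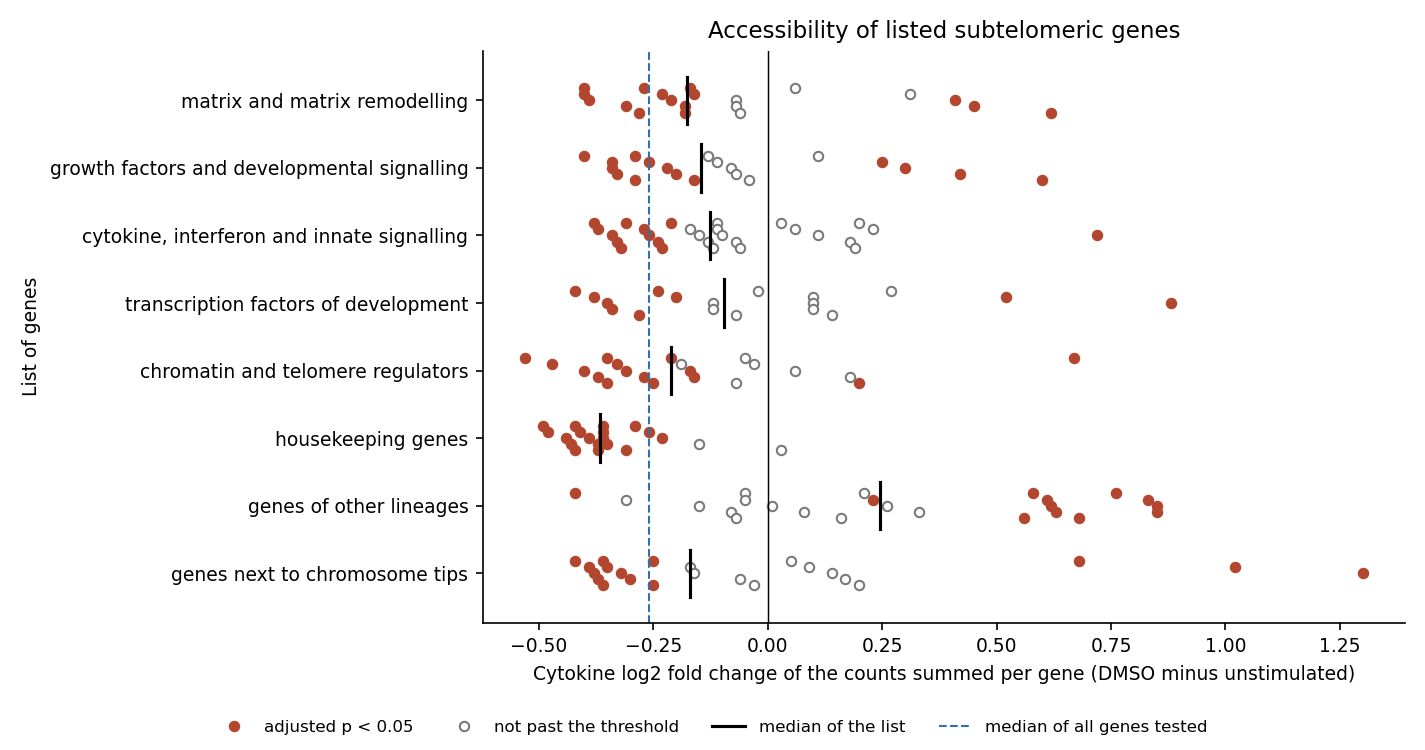
Cytokine log2 fold change (x axis) of the counts summed per gene for 8 lists of subtelomeric genes (y axis), with filled points at adjusted p under 0.05, the median of each list in black and the median of all genes tested as a dashed line at -0.26. The genes of other lineages have the highest median, at 0.24, and the housekeeping genes the lowest.

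Belinostat changed far fewer subtelomeric peaks. At an adjusted p under 0.05 it opened 57 of 18218 (0.313%), against 0.607% of all peaks, and closed 207 (1.14%), against 1.75% of all peaks. The weighted other peaks opened in 0.538% and closed in 1.38%, or in 0.382% and 0.976% with GC content in the weighting. The median log2 fold change was 0.01 against 0.02 in the weighted others. At an unadjusted p under 0.05 there were 1285 peaks up (7.05%, against 8.21% of all peaks) and 1045 down (5.74%, against 7.68%). Groups did not overlap at 10 of the opened peaks (0.0549% of subtelomeric peaks, against 0.13% of all) and 83 of the closed peaks (0.456%, against 0.747%). Closure was most frequent in the last 0.1 Mb, with 9 of 362 peaks (2.49%), and between 0.77% and 1.53% in the 5 ranges from there to 2 Mb. Leaving out belinostat replicate 1 raised the shares to 0.626% opened, against 0.855% of all peaks, and 1.93% closed, against 2.6%. Without DMSO replicate 2 0.137% opened, against 0.302% of all peaks. Without DMSO replicate 3 or belinostat replicate 2, 3 or 5 0.148% to 0.192% opened, against 0.356% to 0.509% of all peaks.

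Peaks with the AP-1 word closed more often after belinostat, inside and outside the subtelomeres. Of 1072 subtelomeric peaks with TGANTCA in the central 200 bases 58 closed (5.41%), and of 11896 without it 1.23% closed. Other autosomal peaks had 4.62% and 2.07%. Peaks with the word were stronger, with a median log2 CPM of 0.94 against 0.51. Among subtelomeric peaks above a log2 CPM of 2, 54 of 325 with the word closed (16.6%) and 5.84% of those without it, against 14.5% and 7.38% of other autosomal peaks. Loess and GC offsets gave 3.82% and 0.916% over all subtelomeric peaks with and without the word. After cytokines 9.24% of subtelomeric peaks with the word opened and 18.8% of those without it, against 4.64% and 10% of other autosomal peaks. The GC-box word went the other way under belinostat, inside and outside the subtelomeres. Above a log2 CPM of 2 3.05% of subtelomeric peaks with it closed and 9.79% of those without it, against 2.37% and 10.4% of other autosomal peaks.

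Of the 5 largest rises after belinostat, the KANK1 peak had log2 CPM of 1.05, 1.34 and 1.84 in unstimulated libraries, 0.29, 1.15 and 1.69 with DMSO and 1.78, 2.16 and 2.7 with belinostat. It rose by 1.09 ± 0.21 (SE, adjusted p 0.00016). At all 5 peaks the belinostat libraries were above the DMSO libraries, which the naming rule required. A peak in an exon of MAPK8IP3 on 16p (chr16:1745553-1745949) rose by 0.94 ± 0.25 (adjusted p 0.016), and an intergenic peak on 13q (chr13:112451939-112452693) by 0.82 ± 0.24 (0.041). A peak in an intron of VIPR2, a receptor of the gut peptide VIP (chr7:159098851-159099612), had medians of 2.6, 1.86 and 2.52 in unstimulated, DMSO and belinostat libraries. It had fallen by 0.77 ± 0.17 after cytokines (adjusted p 0.000756) and rose by 0.73 ± 0.18 after belinostat (0.00593), and the residual difference was -0.04 ± 0.16 (adjusted p 0.879). A peak in an exon of SAMD11, 224 bp from its start (chr1:924543-925310), rose by 0.48 ± 0.14 (0.0303). The KANK1 peak was called under all settings that were refitted and with each library left out. The peaks on 16p, 13q, 7q and 1p lost the call with TMM factors of the weaker peaks, where the adjusted p values were 0.119, 0.205, 0.179 and 0.414, and those on 16p and 13q also with DESeq2. Leaving out 1 library ended the call on 13q for 6 libraries (highest adjusted p 0.227), on 1p for 5 and on 16p for 2.

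The 5 largest falls after belinostat held under all settings that were refitted, and the WASHC1 peak was the first of them. An intergenic peak on 21q, 28022 bp from the start of COL6A1 (chr21:46029192-46029462), had log2 CPM of 0.55, 1.06 and 1.5 in unstimulated libraries, 0.81, 1.35 and 2.11 with DMSO and -0.25, 0.48 and 0.76 with belinostat. It fell by 1.27 ± 0.27 (adjusted p 0.00101). A peak in an exon of PCBP3, an RNA-binding protein gene with an antisense gene over the same position (chr21:45831997-45832882), had medians of 2.97, 3.09 and 1.92 and fell by 1.15 ± 0.17 (adjusted p 1.33e-07), after a cytokine change of 0.02 ± 0.14. Intergenic peaks on 3q (chr3:197327608-197328081, nearest to DLG1) and 20p (chr20:1430145-1430598, nearest to NSFL1C) fell by 1.15 ± 0.22 and 1.07 ± 0.24 (adjusted p 0.00014 and 0.0025). Both had also fallen after cytokines, by 0.89 ± 0.16 and 0.86 ± 0.18. Near COL6A1 8 of 40 peaks closed after belinostat, a count chosen after its values were seen, and 6 of the 40 with loess and GC offsets. Over all subtelomeric peaks the shares were 1.14% and 0.873%. The 40 peaks had a median log2 CPM of 1.61, against 0.25 for all subtelomeric peaks. Closing was more frequent among strong peaks, at 6.15% in the strongest of the 5 bins of subtelomeric peaks.

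No chromosome end was called higher after belinostat by edgeR, against 0.207% of all windows, and 2 were lower, against 0.966%. At an unadjusted p under 0.05 0 ends were higher, against 2.14% of all windows, and 22 lower (56.4%), against 25.3% of all windows. The size of the change was nearly the same, with a median log2 fold change of -0.08 for the ends and -0.07 for the 1411 other windows. The end of 21q, which carries COL6A1, COL6A2 and COL18A1, had levels of 10.99, 11.06 and 11.13 in unstimulated libraries, 10.83, 10.86 and 10.99 with DMSO and 10.65, 10.73 and 10.86 with belinostat. It was lower by -0.16 ± 0.04 (adjusted p 0.0487), with overlap between DMSO and belinostat libraries. The end of 4p was lower by -0.11 ± 0.03 (adjusted p 0.0487), with levels of 10.65 to 10.73 in DMSO and 10.54 to 10.61 in belinostat libraries that did not overlap. The ends of 15q (-0.16 ± 0.05) and 17q (-0.13 ± 0.05) missed the threshold, and 4q (0.05), 7q (0.05) and 3p (0.01) had the highest values. Without belinostat replicate 1, 25 ends were called lower, when 45.8% of all windows were, and without any one of 12 other libraries none was.

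Of the subtelomeric genes 1 (0.0842%) was higher after belinostat, against 0.138% of all genes, and 13 (1.1%) were lower, against 1.73%. Without belinostat replicate 1 20.5% were lower, when 21.3% of all genes were. SERPINF1 on 17p had levels of 5.34, 5.46 and 5.52 in DMSO and 4.58, 4.81 and 5.15 in belinostat libraries, which did not overlap. It fell by 0.62 ± 0.09 (SE, adjusted p 0.000206), after its fall in the cytokine contrast, and by 0.49 with loess and GC offsets. With TMM factors of the weaker peaks, where no subtelomeric gene was called lower, it stood at -0.72 and did not pass the test (adjusted p 0.195). ELANE fell by 0.42 ± 0.09 (adjusted p 0.0111), WASHC1 by 0.36 ± 0.08 (0.0232) and FGFRL1, a fibroblast growth factor receptor without a kinase domain, by 0.30 ± 0.07 (0.0272). These 3 lost the call with TMM factors of the weaker peaks (adjusted p 0.48 each), and FGFRL1 also with loess offsets (0.1). With 1 library left out, the call was kept in 18 of 18 fits for ELANE, 11 for WASHC1 and 10 for FGFRL1. Named after their values were seen, the others were NRROS (-0.43), FAM240C (-0.43), the kinase gene LRRK1 (-0.38), NSFL1C (-0.37), CROCC2 (-0.35), MAFG (-0.34), MISP (-0.34), SLCO4A1 (-0.33) and CFAP97D2 (-0.33). The gene that rose was RFLNB, by 0.90 ± 0.25 (adjusted p 0.0492), and without any one of 14 libraries no subtelomeric gene was called higher. By list, 1 matrix gene, 1 growth factor gene, 1 gene of other lineages and 1 gene next to the tips fell, and 0 members of the other 4 lists passed the test in either direction.

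In the residual contrast, which shares its libraries with the other contrasts, 4562 subtelomeric peaks were opened (25%), against 16.8% of all peaks, and 1987 closed (10.9%), against 13.7%. With loess and GC offsets the shares were 8.35% and 1.84%. The median log2 fold change was 0.50, against 0.20 in the other autosomal peaks of like count and start distance and 0.40 when GC content was weighted as well. Of the lists, genes of other lineages had 16 of 24 higher and 2 lower against unstimulated cells, and housekeeping genes 0 of 20 higher and 19 lower, when 12.8% of all genes were higher and 65.9% lower.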

How the data were processed

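Omni-ATAC libraries of 18 samples (3 groups of 6) were aligned to hg38 by the authors with the ENCODE pipeline, peaks were called with MACS2, and a consensus set over all conditions was made. What was deposited is a table of counts, not normalised, in which the authors had counted the fragments of every library in each consensus peak with csaw. The authors scaled them on background bins, which needs reads and was not done here. The submitters' processing notes also name ChIPseeker 1.34.1. Genes were taken from GENCODE 44 and sequences from hg38.

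All 334857 peaks were fitted in edgeR 4.0.16 (R 4.3.3) with TMM factors, 1 mean per group and the quasi-likelihood test, and p-values were adjusted over all peaks (Benjamini-Hochberg, 0.05). A filter at an average log2 CPM of -3 removed no peak (lowest -1.81). Values are log2 CPM with a prior count of 2. Windows of 2 Mb with at least 10 peaks and protein-coding genes were summed and fitted alike. Other autosomal peaks were weighted to the subtelomeric ones in 20 bins of mean log2 CPM and 4 of start distance (limits 1, 10 and 100 kb), with 5 bins of GC content as an alternative.

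Peaks named were the 5 largest rises and 5 largest falls per contrast among called peaks that averaged 1 log2 CPM or more and whose groups did not overlap. Ends named were the 3 highest and 3 lowest per contrast, and genes came from 8 lists written from general knowledge. Other names were chosen after their values were seen. The set of peaks and the lists were chosen with earlier results of these data known. On simulated counts for the cytokine contrast over 334857 peaks, the fit recovered 71 of 100 peaks changed 2-fold and 29 of 100 changed 1.5-fold. The changed peaks were drawn from those with a mean count of at least 10, and all peaks were given the same dispersion. Far fewer peaks were changed than were called in the data, so the adjusted threshold was stricter there. Recovery in the cytokine contrast itself may differ. The median subtelomeric peak held 3 to 10 counts in a library, and recovery of weaker peaks was not simulated. Alternatives were total counts, TMM over the weaker 50% of peaks, loess offsets without and with GC (limma 3.58.1), a filter at log2 CPM 0, DESeq2 1.42.0, a replicate block, other distance limits and leaving out each library. Same-numbered libraries of different groups did not deviate together (correlations -0.13 to 0.11), so the numbers were not treated as pairs. The values of 1 listed gene are not reported here.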

Additional observations from a re-analysis of the deposited data

Results flagged for a closer look

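With 6 libraries per group, 14 of 222 groups of values had 1 library far from the other 5, by a gap over the group's range above Dixon's critical value. Chance alone gives about 1 in 20. DMSO replicate 3 stood apart in 6 of the 14, belinostat replicate 1 in 3 and unstimulated replicate 6 in 2.

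The share of subtelomeric peaks without a count was 12.3% in unstimulated replicate 6 (0.664% to 3.5% in the others), 1.89% in DMSO replicate 3 (0.187% to 0.725%) and 5.09% in belinostat replicate 1 (0.192% to 1.54%). DMSO replicate 3 was the low library of its group for MUC2 at 4.5 log2 CPM (others 4.98 to 5.12), MUC5B at 4.04 (4.57 to 4.89), MUC6 at 3.39 (4.08 to 4.5), FLT4 at 4.56 (4.98 to 5.15) and the end of 7q at 9.39 (9.6 to 9.69). Each of these rose after cytokines with this library included.

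Belinostat replicate 1 was low for SLC6A3 at 4.12 (others 4.9 to 5.34) and high for MMP17 at 5.82 (5.48 to 5.59). IFITM1 was at 6.4 in unstimulated replicate 6 (6.09 to 6.19), CHAMP1 at 4.85 in DMSO replicate 1 (5.15 to 5.32) and the end of 4q at 8.11 in unstimulated replicate 4 (8.06 to 8.08). The peak chr16:1745553-1745949 was at -0.28 in DMSO replicate 6 (0.7 to 1.21), and its rise after belinostat missed the threshold without that library.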

How the results depend on the processing

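The shares called depended on the scaling, and for belinostat on 1 library as well, and the cause was not tested. In the order total counts, TMM of the weaker peaks, loess, and loess with GC, subtelomeric peaks opened by cytokines were 26.2%, 3.22%, 6.5% and 4.53% (DESeq2 8.51%), and closed 2.07%, 17%, 0.5% and 0.532% (DESeq2 4.36%). Of all peaks 16.2%, 2.24%, 3.25% and 2.93% opened (DESeq2 4.54%) and 3.25%, 25.2%, 1.5% and 1.03% closed (DESeq2 5.55%). In the same order, ends higher were 25, 0, 33 and 29, when 30.8%, 3.03%, 36.5% and 32.8% of all windows were. Ends lower were 4 with totals, 2 with loess and 0 with loess and GC, against 27%, 17% and 6.62% of windows. Genes higher were 24.3% with totals and 2.44% with TMM of the weaker peaks, against 18.1% and 1.85% of all genes. Genes lower were 12.4% with totals, 0.927% with loess and 1.85% with loess and GC, against 18.8%, 3.9% and 5.23%. The difference of medians from other peaks stayed above 0, at 0.14 with loess and GC offsets and 0.10 with GC in the weighting. For belinostat, the same 4 scalings opened 0.571%, 0.022%, 0.554% and 0.527% of subtelomeric peaks (0.685% above log2 CPM 0, 0.0604% by DESeq2). Of all peaks they opened 1.1%, 0.098%, 1.1% and 1.15% (1.39% and 0.182%). Closed were 0.521% with TMM of the weaker peaks and 1.94% above log2 CPM 0, against 1.01% and 3.15% of all peaks. Ends higher were 1 with loess and GC, against 16.8% of windows. Ends lower were 4, 0 and 1 with totals, TMM of the weaker peaks and loess, against 6.9%, 0% and 2.76% of windows. Genes higher were 0.674%, 0%, 1.1% and 0.758% over the 4 scalings, against 1.53%, 0.00529%, 2.94% and 2.63% of all genes. Genes lower were 2.36% with totals and 0% with TMM of the weaker peaks, against 2.94% and 0.0106%. Residual opened shares were 42.5%, 3.26%, 12.2% and 8.35%, against 30.4%, 2.64%, 7.18% and 6.3% of all peaks. Residual closed shares were 4.98%, 21.2%, 1.63% and 1.84%, against 6.31%, 30.9%, 3.66% and 2.77%.

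With TMM of the weaker peaks the sign turned for EHMT1 (-0.23), COL20A1 (-0.03), RSPO4 (-0.01), JAG2 (-0.15), NKD2 (-0.20) and the ends of 7q (-0.20), 14q (-0.32) and 10q (-0.35) after cytokines, and for 4q (-0.08), 7q (-0.08) and 3p (-0.10) after belinostat. It also turned for 19q with loess (0.05) and 3p with loess and GC (0.02) after cytokines.

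Leaving out 1 library gave 9.44% to 18.8% opened and 4.25% to 8.2% closed by cytokines, with 1 to 3 ends higher. For belinostat it gave 0.137% to 0.626% opened, 0.779% to 1.93% closed, 0 to 25 ends lower, 0% to 0.505% of genes higher and 0.505% to 20.5% lower, the highest values all without belinostat replicate 1. The belinostat value of 3p ran from -0.05 to 0.04 and turned in 9 of 18 cases. The replicate numbers do not pair the libraries. With the replicate block 17% of peaks opened and 7.52% closed after cytokines, and after belinostat 5 ends and 4.13% of genes were lower. In the simulation 29 of 100 peaks changed 1.5-fold were recovered, under a stricter adjusted threshold than in the data. The closed subtelomeric peaks called after cytokines were changed by a median of only 0.42 on the log2 scale.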
